A study of Mus musculus with 5 samples.

Results

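The miR-17-92 cluster is a set of 6 miRNAs cut from a single primary transcript, and its members were followed through injury and repair of a mouse leg muscle. They were taken by name from the assays of the series: miR-17, miR-18a, miR-19a, miR-20a, miR-19b and miR-92a, which are 6 of the 217 miRNA assays measured. The tissue was tibialis anterior of C57BL/6J male mice aged 4 to 6 months, either not injected (baseline) or injected in both hind limbs with 100 µl of 2.5 µM cardiotoxin, a venom peptide used to destroy muscle fibres while sparing the stem cells that replace them. Muscles were analysed at baseline and on days 1, 3, 4, 7 and 21 after the injection, and the labels give 4 mice for each of these groups. No saline-injected muscles were among the groups analysed here, so injury by the needle and by the toxin cannot be told apart.

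Each miRNA was quantified by TaqMan RT-PCR, and the values are raw threshold cycles (Ct), where a lower Ct means more RNA and a difference of 1 cycle is read as a 2-fold difference. Each of the 6 arms held 4 Ct values per assay, and the same 4 baseline values served all 5 time points, so the comparisons with baseline share their controls. The files do not name the mouse behind a value, and p-values would measure technical spread if some were repeats of 1 RNA. In what follows, a well means the values at the same position in an arm over all assays, taken to come from the same RNA. It is not a physical well of a PCR plate. All 144 Ct values of the cluster lay between 13.81 and 26.15, far under the detection limit of 35, so every member entered every comparison. The fibre markers were abundant at baseline, with miR-133a at Ct 9.19 to 9.59 and miR-1 at Ct 12.48 to 13.14 (lowest and highest of 4 values).

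miRNAs are short RNAs that guide silencing proteins to messenger RNAs, mostly by pairing of the seed, bases 2 to 8 of the miRNA. The miR-17-92 transcript is switched on by the growth regulators MYC and E2F, is abundant in dividing progenitor cells of many tissues, and is known from lymphomas as an oncogene. Its miRNAs are known to lower inhibitors of the cell cycle such as Cdkn1a and the pro-death protein Bim. The hairpins are processed separately, and in human cells the protein hnRNP A1 is known to bind the miR-18a hairpin and promote its cleavage.

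The 6 hairpins lie within 836 bp on the plus strand of chr14:115043671-115044506 (RefSeq, GRCm38.p6), in the order miR-17, miR-18a, miR-19a, miR-20a, miR-19b and miR-92a. RefSeq annotates each as a miRNA gene, and the non-coding RNA gene Mir17hg begins within the last stretch of the cluster. The mature sequences are shown because seed families cut across the cluster and because near-identical relatives limit what an assay can separate. Each is written 5′ to 3′ from RefSeq, with the seed in capitals. The files name no arm, and the arm shown is the one that the plain names conventionally denote.
miR-17: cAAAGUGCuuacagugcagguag
miR-20a: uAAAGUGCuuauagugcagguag
miR-18a: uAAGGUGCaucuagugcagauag
miR-19a: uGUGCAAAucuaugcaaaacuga
miR-19b: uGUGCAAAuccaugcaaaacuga
miR-92a: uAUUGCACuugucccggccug
miR-17 and miR-20a share the seed AAAGUGC, miR-19a and miR-19b share GUGCAAA, and miR-92a has the seed AUUGCAC. miR-18a has a seed of its own within the cluster, AAGGUGC, which differs from that of miR-17 by the substitution A4G (positions counted from 1 at the 5′ end, miR-17 base first). The miR-19a and miR-19b sequences differ only by U11C. Mature miR-19b and miR-92a are also encoded by Mir19b-2 and Mir92-2 on the X chromosome, so their assays measure both loci together. These 2 genes lie beside Mir20b and Mir106a, in the paralogous cluster miR-106a-363.

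Raw Ct has to be set against something measured in the same RNA, and the choice mattered here. The main values are relative to the median miRNA, that is, corrected for each well's median change over 205 miRNAs that were under Ct 35 in every well. The same values relative to U6, a spliceosomal RNA that the files mark as the endogenous control, stand beside them. U6 itself was higher than baseline by 2.29, 1.83, 1.62, 1.29 and 0.27 (log2, raw Ct) on days 1, 3, 4, 7 and 21, and the values relative to the median miRNA exceed those relative to U6 by 1.91, 1.12, 0.67, 0.09 and 0.12 on those days. Differences between arms were tested with limma over all detected miRNAs. In what follows, "rose" and "fell" are kept for a change with an adjusted p under 0.05 on both scales, and a call on one scale is given with the name of that scale.

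miR-18a rose at all 5 time points, and it was the member with the largest change on each of those days. Its known targets include connective tissue growth factor, a matrix protein. Its raw Ct was 26.15, 25.68, 25.05 and 25.14 at baseline. On day 1 it was 20.99, 21.11, 21.17 and 21.60, and on day 3 it was 20.12, 20.49, 20.12 and 20.24. All values of both days lay under every baseline value, with a wide gap. On day 4 the Ct was 20.36, 20.61, 20.48 and 20.23, and on day 7 it was 21.36, 21.30, 21.54 and 21.28. On day 21 it was 24.02, 23.99, 24.19 and 24.02, still under every baseline value but the nearest to them of the 5 time points.

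**Figure D1:**
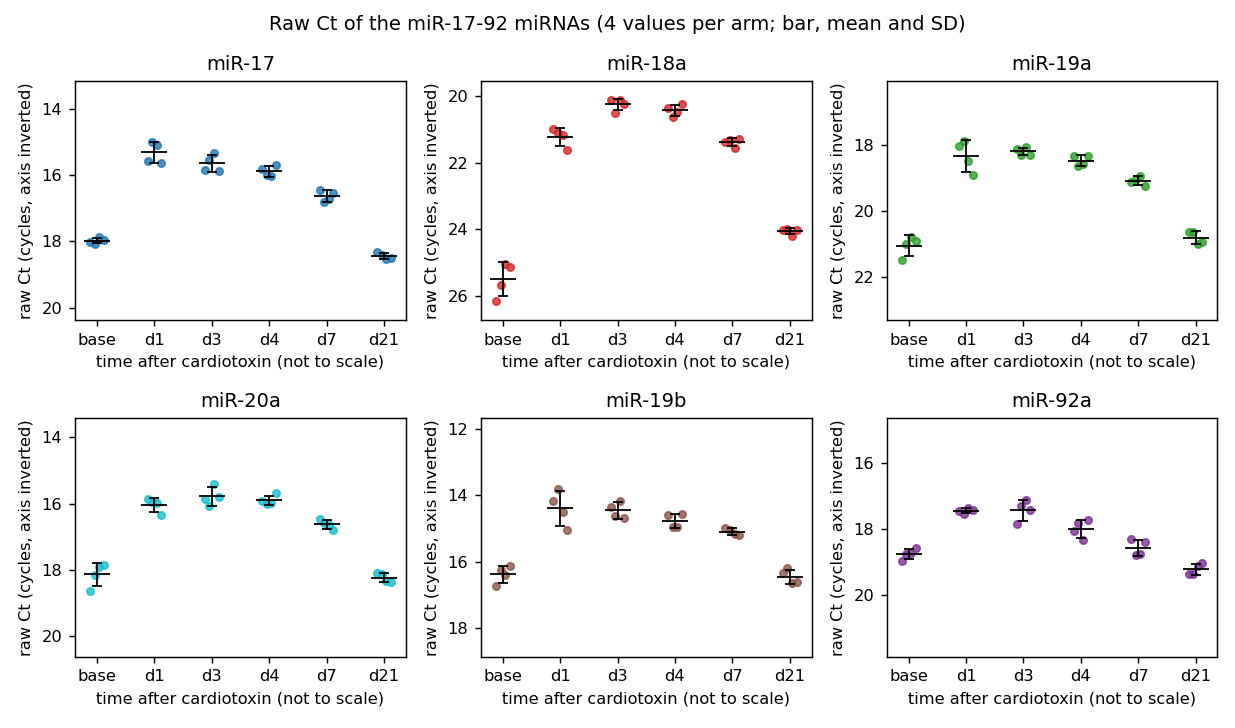
Raw Ct of each member in the 6 arms, with the axis inverted so that more RNA is higher; points are the 4 values of an arm, the bar and whiskers their mean and SD, and every panel spans the same number of cycles. miR-18a moves most, between 26.15 at baseline and 20.12 on day 3, while miR-92a stays between 17.13 and 19.37.

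Relative to the median miRNA, miR-18a was 15.0-fold higher than baseline on day 1 (log2 3.90 ± 0.15, SE of the fit), 23.5-fold on day 3 (4.56), 17.6-fold on day 4 (4.14), 7.69-fold on day 7 (2.94) and 2.46-fold on day 21 (1.30). The limma adjusted p lay between 2.21e-16 on day 3 and 1.89e-07 on day 21. Relative to U6 the increases were 3.99-fold on day 1 (log2 2.00 ± 0.48), 10.8-fold on day 3, 11.1-fold on day 4, 7.21-fold on day 7 and 2.27-fold on day 21. The size on day 1 thus depended most on the scaling. The limma adjusted p relative to U6 ran from 2.16e-07 on day 3 to 0.0488 on day 21. miR-18a was called higher under all 9 scalings tried on days 1, 3, 4 and 7, and under 8 of 9 on day 21, where snoRNA135, another control RNA, gave 0.16. Relative to U6 the day 21 call was lost without baseline replicate 1, 2 or 4 or day 21 replicate 1, 2 or 4, with log2 values from 0.90 to 1.32. Among all tested miRNAs, ordered by change from highest to lowest, miR-18a stood at place 14 of 211 on day 1, 8 of 212 on day 3, 11 of 213 on day 4, 29 of 213 on day 7 and 47 of 213 on day 21.

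Marker miRNAs of the cell types in the muscle moved at the same times. The 4 fibre markers measured of 5 listed (miR-1, miR-133a, miR-133b and miR-499, miRNAs of the contractile fibre) summed to 0.0547 to 0.202 of their baseline mean on day 1, 0.0103 to 0.0521 on day 3, 0.0327 to 0.0841 on day 4, 0.0852 to 0.133 on day 7 and 0.35 to 0.463 on day 21, relative to the median miRNA. All 4 fell on days 1, 4, 7 and 21, and 3 fell on day 3, when miR-499 was not detected. Of all tested miRNAs, 38.9%, 41.0%, 41.3%, 35.7% and 19.2% fell on days 1, 3, 4, 7 and 21. The shares that rose on those days were 9.0%, 19.3%, 25.4%, 31.5% and 22.1%. The 7 myeloid and lymphoid markers, among them miR-223 and miR-142-3p, summed to 12.4 to 14.5 times their baseline mean on day 1 and to 2.42 to 2.84 on day 3 and all 7 were detected in every arm. Of the 7, 3 rose and 0 fell on day 1, against 9.0% and 38.9% of all tested miRNAs, and 3 rose and 2 fell on day 3, against 19.3% and 41.0%. On days 4, 7 and 21 their sums were 1.21 to 1.34, 0.74 to 0.975 and 0.786 to 0.963. Single markers of this list went both ways: 3, 2 and 0 rose on those days, and 2, 2 and 0 fell. The 2 that fell on day 3 were miR-150 and miR-155 (log2 -1.32 and -1.37 relative to the median miRNA). On day 7 miR-142-3p was still at 2.18 and miR-150 at -2.10. A sum follows its most abundant markers. All marker sums and levels given here are on the scale of the median miRNA. With U6 as the control, log2 values are lower by 1.91 on day 1, 1.12 on day 3 and 0.67 on day 4. On days 7 and 21 they are lower by 0.09 and 0.12. The 2 endothelial markers summed to 1.03 to 1.26 on day 1, 0.199 to 0.326 on day 3, 0.139 to 0.19 on day 4, 0.193 to 0.221 on day 7 and 0.6 to 0.705 on day 21. Their day 1 level near baseline does not carry over to the U6 scale, where it is lower by the log2 1.91 given above. The 6 fibroblast and smooth muscle markers summed to 0.434 to 0.545, 0.315 to 0.366, 0.245 to 0.3, 0.25 to 0.274 and 0.44 to 0.527 on those days, but single markers went both ways. Those that rose numbered 0, 1, 1, 3 and 0 of 6, and those that fell numbered 3, 2, 2, 2 and 1, against the shares of all tested miRNAs given above. The 1 red cell marker measured of 2 listed was at 0.43 to 1.73 of its mean at baseline. On the 5 days it was at 1.49 to 3.62, 0.724 to 1.29, 0.405 to 0.503, 0.114 to 0.28 and 0.361 to 0.681. It rose on none of these days and fell on days 4 and 7. Only the day 7 values all lay under the baseline range. The part of these shifts in the results for the cluster was not tested. In whole muscle, fewer cells of a type and less RNA per cell cannot be told apart.

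The cluster as a group was high early and near or under baseline late when measured against the median miRNA. Members called higher numbered 6 of 6 on day 1, 6 of 6 on day 3, 5 of 6 on day 4, 3 of 6 on day 7 and 1 of 6 on day 21, against 41.2%, 38.7%, 43.2%, 40.4% and 35.7% of all tested miRNAs. Those called lower numbered 0, 0, 0, 1 and 2, against 38.9%, 41.0%, 41.3%, 42.3% and 37.6%. The members' median log2 change was 1.99, 1.64, 1.22, 0.24 and -0.24 on days 1, 3, 4, 7 and 21, where the median of all tested miRNAs lay between -0.05 and 0.06. Relative to U6 the counts were different: 1 member was called higher on each of the 5 days, against 9.0%, 19.3%, 25.4%, 31.5% and 22.1% of all, and it was miR-18a each time. Members called lower relative to U6 numbered 1, 0, 0, 1 and 0, against 65.9%, 52.8%, 43.2%, 36.2% and 19.2% of all. At an unadjusted limma p under 0.05, day 4 had 1 lower member relative to U6 (miR-92a), and the other counts of 0 stayed at 0 under both scalings. The members' median relative to U6 was 0.09, 0.51, 0.55, 0.15 and -0.36, while that of all tested miRNAs was -1.95, -1.17, -0.61, -0.03 and -0.12. The median of the members stood above that of all miRNAs on days 1, 3 and 4, a gap that the choice between the 2 scales leaves the same because it shifts all miRNAs alike. The distance from baseline depended on the scale for every member, and miR-18a was the only one called higher on both. On days 7 and 21 the share of members called higher was near or under that of all tested miRNAs.

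**Figure D2:**
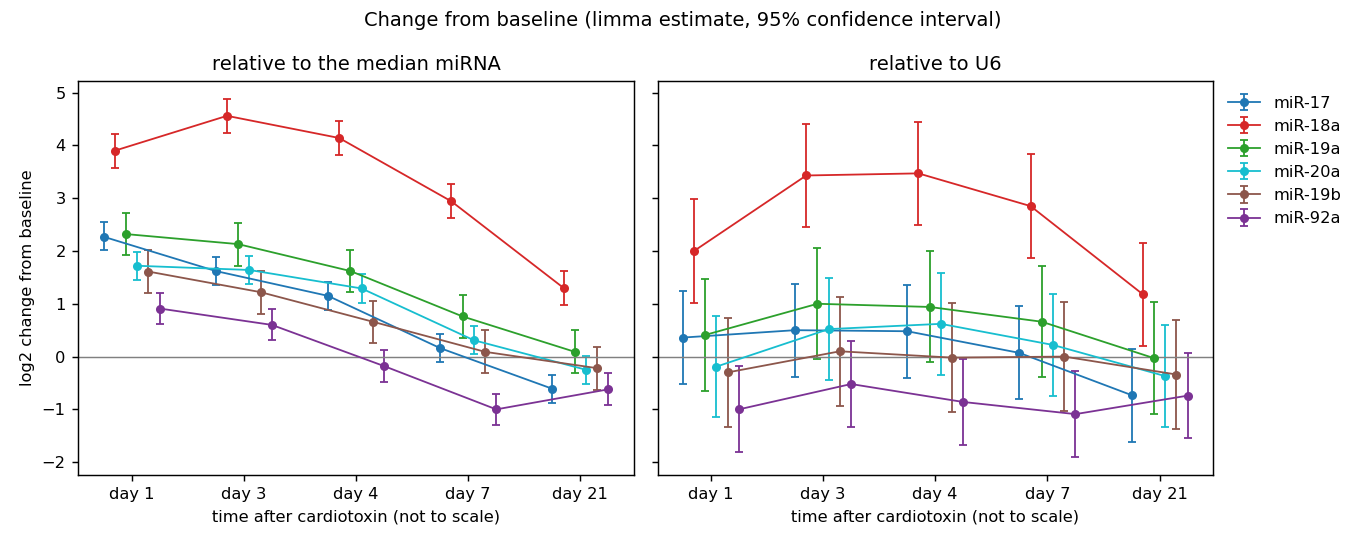
Log2 change from baseline of each member (limma estimate with its 95% confidence interval, 4 values per arm), relative to the median miRNA on the left and to U6 on the right. miR-18a is above 0 in both panels on all 5 days, whereas the other members lie above 0 on days 1 and 3 in the left panel. In the right panel miR-92a lies under 0 on all 5 days, with intervals that include 0 on days 3 and 21. The intervals of the remaining 4 members include 0 there on all 5 days.

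**Figure D3:**
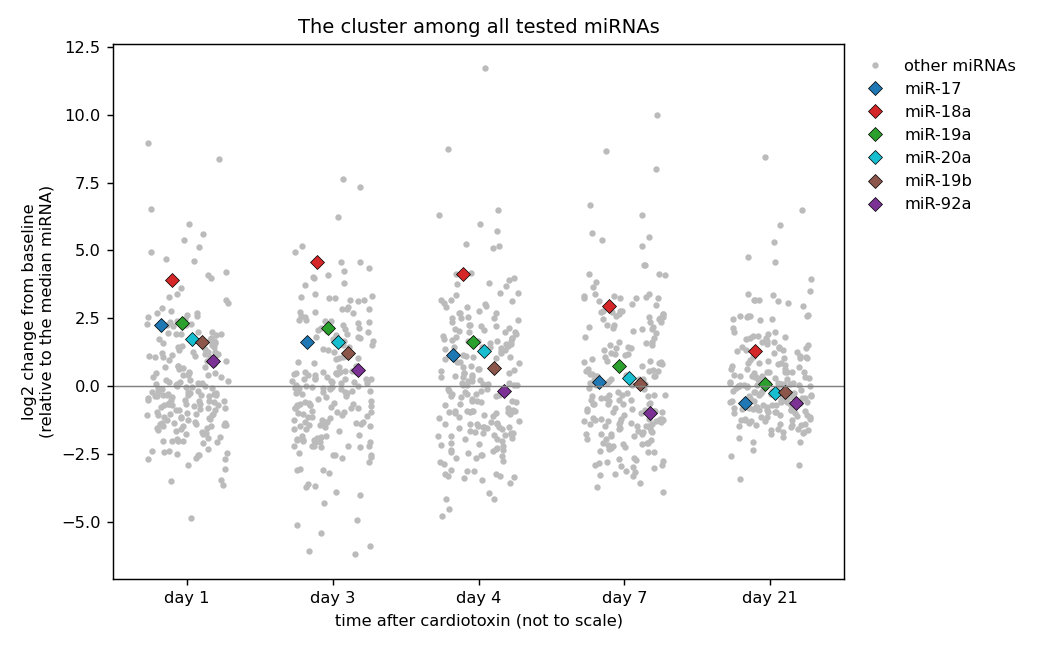
Log2 change from baseline relative to the median miRNA for every tested miRNA (grey) and the 6 members (coloured diamonds) at each time point. On day 1 all members lie above 0, at 0.91 to 3.90, and on day 21 they lie at -0.62 to 1.30 within the bulk.

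miR-17 and miR-20a, which share a seed known to target E2f1 and Cdkn1a, had early increases that held relative to the median miRNA and not relative to U6. For miR-17 the raw Ct was 18.03, 18.07, 17.88 and 17.95 at baseline. It was 15.57, 15.01, 15.09 and 15.63 on day 1, and 15.84, 15.54, 15.34 and 15.88 on day 3. Every value of both days lay under every baseline value. On day 4 the Ct was 15.81, 16.01, 16.04 and 15.69, on day 7 it was 16.44, 16.80, 16.73 and 16.54, and on day 21 it was 18.32, 18.42, 18.53 and 18.49. The day 21 values were the only ones above all baseline values, which means less miR-17 per reaction. Relative to the median miRNA, miR-17 was 4.83-fold higher than baseline on day 1 (log2 2.27 ± 0.13, limma adjusted p = 6.44e-13), 3.08-fold on day 3 and 2.22-fold on day 4. It was 1.12-fold on day 7, which missed the threshold (adjusted p = 0.234), and was called lower on day 21 at log2 -0.61 ± 0.13 (adjusted p = 0.000222). Relative to U6 (SE 0.43) the changes were 0.36, 0.50, 0.48, 0.07 and -0.73 on days 1, 3, 4, 7 and 21, and none of them passed. Of the 9 scalings tried, 8, 7 and 7 called miR-17 higher on days 1, 3 and 4, and 0 called it lower.

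miR-20a had a raw Ct of 17.85 to 18.63 at baseline, 15.86 to 16.34 on day 1, 15.40 to 16.07 on day 3, 15.69 to 16.00 on day 4, 16.46 to 16.80 on day 7 and 18.10 to 18.36 on day 21. The day 21 values lay inside the baseline range, and those of the other days lay under it. Relative to the median miRNA its log2 change was 1.72 on day 1 and 1.64 on day 3, then 1.29, 0.31 and -0.25 on days 4, 7 and 21 (SE 0.13 each). The first 4 of these passed limma, with adjusted p between 8.76e-11 on day 1 and 0.0309 on day 7. The day 7 call was lost without baseline replicate 1 or 4 or day 7 replicate 1, 2 or 3, at log2 0.25 to 0.31. Relative to U6 the values were -0.19, 0.52, 0.62, 0.22 and -0.37, and none passed. On each of days 1, 3 and 4, 7 of the 9 scalings called miR-20a higher and 0 called it lower.

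miR-19a and miR-19b, which share a seed, are the pair known to carry most of the oncogenic activity of the cluster in mouse lymphoma. miR-19a had a raw Ct of 20.79 to 21.49 at baseline, 17.88 to 18.93 on day 1, 18.08 to 18.30 on day 3, 18.34 to 18.65 on day 4, 18.96 to 19.25 on day 7 and 20.63 to 21.00 on day 21. Its log2 change relative to the median miRNA was 2.32, 2.13, 1.62, 0.76 and 0.09 on those 5 days (SE 0.19 each). It passed limma on the first 4, with adjusted p between 4.59e-10 on day 1 and 0.00113 on day 7. The changes relative to U6 (0.41, 1.00, 0.94, 0.66 and -0.03, SE 0.52) did not pass. Of the 9 scalings, 8, 7 and 7 called miR-19a higher on days 1, 3 and 4, and 0 called it lower. On each of the 5 days only miR-18a stood higher among the members.

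miR-19b changed less than miR-19a on days 1 to 7. Its raw Ct was 16.14 to 16.72 at baseline, 13.81 to 15.05 on day 1, 14.16 to 14.69 on day 3, 14.57 to 14.97 on day 4, 14.98 to 15.19 on day 7 and 16.20 to 16.64 on day 21, inside the baseline range. Relative to the median miRNA the log2 change was 1.61, 1.22 and 0.66 on days 1, 3 and 4 (SE 0.19, limma adjusted p = 1.59e-07, 6.15e-06 and 0.00371). On days 7 and 21 it was 0.09 and -0.22, and neither passed. None of the changes relative to U6 passed, and they included -0.30 on day 1 and 0.10 on day 3. Of the 9 scalings, 7, 7 and 5 called miR-19b higher on days 1, 3 and 4, and 0, 1 and 1 called it lower. The changes of the 2 sister miRNAs came closest to each other on day 21, at 0.09 for miR-19a and -0.22 for miR-19b.

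miR-92a had the lowest change of the members on days 1, 3, 4 and 7 and was the only one that fell relative to baseline. It is known to restrain vessel growth by lowering the integrin subunit Itga5 in endothelium. Its raw Ct was 18.96, 18.74, 18.72 and 18.58 at baseline, 17.47, 17.55, 17.36 and 17.43 on day 1, and 17.86, 17.32, 17.13 and 17.44 on day 3. On day 4 it was 18.06, 17.83, 18.34 and 17.72, and on day 7 it was 18.31, 18.78, 18.75 and 18.39, which overlaps baseline. On day 21 it was 19.35, 19.37, 19.13 and 19.04, above every baseline value. The day 1 direction turned with the scaling: the log2 change was 0.91 ± 0.14 relative to the median miRNA (limma adjusted p = 6.02e-06) and -1.0 ± 0.40 relative to U6 (adjusted p = 0.0247), the second of which was lost without baseline replicate 2 or 3 or day 1 replicate 3 or 4. On day 3 the values were 0.60 and -0.52, of which the first passed, and on day 4 they were -0.18 and -0.86, of which neither did.

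On day 7 miR-92a fell by log2 1.0 against the median miRNA (0.5-fold, adjusted p = 1.38e-06) and by 1.09 relative to U6 (limma adjusted p = 0.016). It was the 1 member that fell relative to baseline on any day, against 35.7% of all tested miRNAs lower under both scalings on day 7. The call relative to U6 was lost without baseline replicate 2 or day 7 replicate 1 or 4, and 5 of the 9 scalings called it lower. With raw Ct and with Y1 as the control the log2 change was 0.19 and 0.10. On day 21 it was called lower relative to the median miRNA (-0.62, adjusted p = 0.000654) and not relative to U6 (-0.74 ± 0.40, limma adjusted p = 0.133).

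The members were also compared with one another, since a difference between 2 assays of the same RNA needs no control RNA. Each well was scaled to the mean of the 6 members, and the same limma fit was run over all miRNAs. On that scale 4, 5, 4, 5 and 3 members differed from the mean of the cluster on days 1, 3, 4, 7 and 21, against 88.2%, 89.2%, 82.6%, 83.1% and 72.3% of all tested miRNAs. The members are themselves part of that mean, so the counts say only that they did not change alike.

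miR-18a stood above the mean of the cluster on all 5 days, by log2 1.78, 2.59, 2.69, 2.40 and 1.35 (SE 0.12, limma adjusted p between 6.77e-15 on day 4 and 2.1e-09 on day 21). Against the mean of the other 5 members it was 4.40-fold, 8.64-fold, 9.41-fold, 7.35-fold and 3.08-fold higher than at baseline. miR-92a stood under the mean of the cluster on all 5 days, by log2 values of -1.21, -1.36, -1.63, -1.54 and -0.57 (SE 0.16, limma adjusted p between 6.12e-09 on day 4 and 0.00431 on day 21). miR-18a, whose hairpin is the second in the transcript, and miR-92a, whose hairpin is the last, were thus the highest and the lowest member on days 1, 3, 4 and 7, and on day 21 miR-92a was not called different from miR-17.

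The remaining 4 members spread from 0.16 for miR-19a to -0.74 for miR-19b on day 3, and miR-17 at -0.56 was level with miR-92a on day 21. miR-19a was not called different from the mean of the cluster on any day, at 0.14 to 0.21. miR-19b stood under it on days 1, 3, 4 and 7 (-0.51, -0.74, -0.79 and -0.45) and not on day 21 (-0.17). miR-20a stood under it on days 1, 3 and 7 (-0.41, -0.32 and -0.23), and miR-17 on days 3, 4, 7 and 21 (-0.34, -0.30, -0.38 and -0.56). Without baseline replicate 1 miR-17 lost its call on days 3 and 4 (-0.23 and -0.19), and on day 4 also without day 4 replicate 2, 3 or 4. The day 7 call of miR-20a was lost without baseline replicate 3 or 4 or day 7 replicate 4 (-0.22 to -0.18). The mean includes miR-18a, so a member that changed like most of the cluster has a negative value here. With miR-17 in place of the mean, miR-20a differed on day 1 alone (-0.56, adjusted p = 0.00312), and its limma adjusted p on the other 4 days was 0.0588 or higher. Against miR-17, miR-19a was called higher on days 3, 4, 7 and 21 (0.50, 0.47, 0.60 and 0.70) and not on day 1 (0.05). On the same reference miR-19b was called lower on days 1, 3 and 4 (-0.66, -0.40 and -0.49) and not on days 7 and 21. The miR-92a values against miR-17 were -1.36, -1.02, -1.33, -1.16 and -0.02, and the last of these, from day 21, did not pass.

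**Figure D4:**
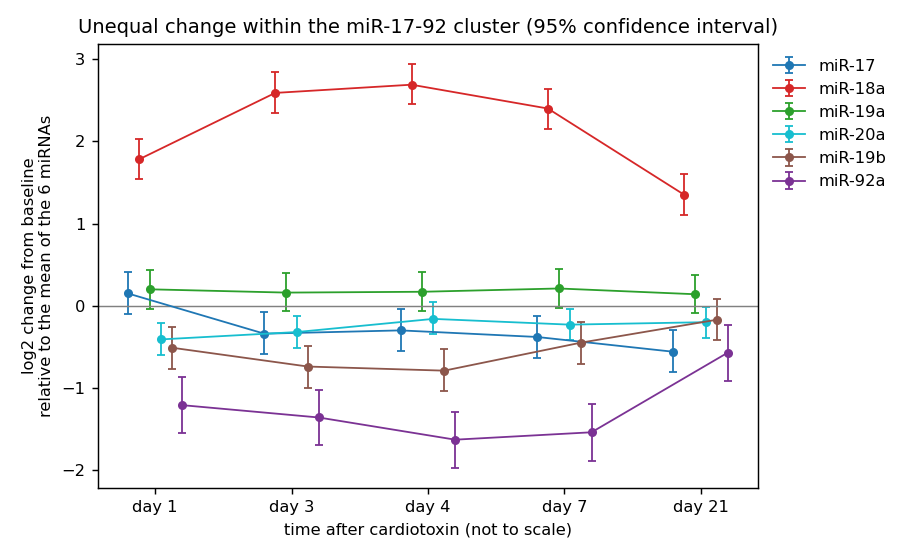
Log2 change from baseline of each member relative to the mean of the 6 members in the same well (limma estimate with its 95% confidence interval). miR-18a lies at 1.35 to 2.69 and miR-92a at -1.63 to -0.57, and miR-17 is level with miR-92a on day 21.

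The within-well Ct differences show the same without any fit. miR-18a Ct minus miR-17 Ct was 8.12, 7.61, 7.17 and 7.19 cycles at baseline, 5.42, 6.10, 6.08 and 5.97 on day 1, and 4.28, 4.95, 4.78 and 4.36 on day 3. It was 4.55, 4.60, 4.44 and 4.54 on day 4, 4.92, 4.50, 4.81 and 4.74 on day 7, and 5.70, 5.57, 5.66 and 5.53 on day 21. No injured value reached the baseline range, also on day 21, when miR-17, miR-19a, miR-20a and miR-19b were within a log2 change of 0.61 of baseline relative to the median miRNA. miR-92a Ct minus miR-17 Ct was 0.63 to 0.93 cycles at baseline, 1.80 to 2.54 on day 1, 1.56 to 2.02 on day 3, 1.82 to 2.30 on day 4 and 1.85 to 2.02 on day 7. On day 21 it was 0.55 to 1.03, which spans the baseline range. miR-19b Ct minus miR-19a Ct was -4.77 to -4.39 at baseline and -4.07 to -3.60 over days 1, 3 and 4, then -4.14 to -3.79 on day 7 and -4.43 to -4.29 on day 21, which overlaps baseline. The size of such a difference depends on the 2 assays, so only its shift between arms is read.

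Between successive time points, miR-18a was the only member that passed under both scalings. It rose between days 1 and 3, by log2 0.65 ± 0.15 relative to the median miRNA (limma adjusted p = 0.000669) and 1.44 ± 0.48 relative to U6 (adjusted p = 0.0137), where 31.0% of all tested miRNAs were higher under both. Relative to U6 this call was lost without day 1 replicate 3 or 4 or day 3 replicate 1 (log2 1.10 to 1.28), and with Y1 as the control it turned to -0.76. It fell between days 7 and 21, by 1.64 and by 1.67 on the 2 scales (limma adjusted p = 1.31e-08 and 0.00869), where 14.4% of all were lower under both. All 9 scalings called that decrease. Between days 1 and 3, 1 member was called higher and 1 lower on the scale of the median miRNA, against 31.5% and 48.4% of all tested miRNAs. The second was miR-17, at -0.65 ± 0.13 relative to the median miRNA (limma adjusted p = 9.74e-05) and 0.14 relative to U6.

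From day 3 to day 4 and from day 4 to day 7, all 6 members were called lower relative to the median miRNA, against 28.2% and 25.8% of all tested miRNAs, and 0 relative to U6 (limma, also at an unadjusted p under 0.05), against 1.85% and 0.922%. The changes ran from -0.79 for miR-92a to -0.35 for miR-20a in the first step and from -1.20 for miR-18a to -0.57 for miR-19b in the second. With single values left out in turn, the count in the first step lay between 2 and 6. From day 7 to day 21, 4 members were called lower relative to the median miRNA, against 32.4% of all, and miR-92a was called higher at 0.38 ± 0.14 (adjusted p = 0.0236), against 38.4%. That last call was lost without day 7 replicate 2 or 3 or day 21 replicate 3 or 4 (limma log2 0.31 to 0.35).

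The cluster has 2 paralogues in the mouse genome, miR-106a-363 on the X chromosome and miR-106b-25 on chromosome 5, whose miRNAs share its seeds. The assays did not include miR-18b and miR-363 of the first. Of the others, miR-106a, miR-20b, miR-106b, miR-93 and miR-25 were measured, and their sequences are shown to set them beside the members they resemble.
miR-106a: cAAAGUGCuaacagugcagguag
miR-20b: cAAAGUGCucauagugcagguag
miR-106b: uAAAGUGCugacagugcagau
miR-93: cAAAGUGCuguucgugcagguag
miR-25: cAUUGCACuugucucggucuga
The capitals again mark the seed, which is that of miR-17 in the first 4 and that of miR-92a in miR-25. miR-106a differs from miR-17 by the single substitution U10A, and the Ct of miR-17 minus that of miR-106a lay between -0.12 and 0.19 cycles in all 24 wells. Whether either assay also detects the other miRNA was not tested, and the values cannot tell the loci apart. miR-20a and miR-20b differ by U1C and U10C, and their Ct difference lay between -2.95 and -2.21 cycles in all 24 wells, whereas that of miR-18a and miR-17 ranged over 4.28 to 8.12.

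Of the paralogous miRNAs, 5 of 5 were called higher relative to the median miRNA on days 1 and 3, then 3, 1 and 0 on days 4, 7 and 21, against 41.2%, 38.7%, 43.2%, 40.4% and 35.7% of all tested miRNAs. Those called lower numbered 1 and 3 on days 7 and 21, against 42.3% and 37.6%. Relative to U6, limma called 0 of 5 on any day in either direction, and 0 also at an unadjusted p under 0.05, against 9.0% to 31.5% of all called higher and 19.2% to 65.9% called lower. The median log2 change on the scale of the median miRNA was 1.99, 1.64, 1.22, 0.24 and -0.24 for the members on the 5 days, and 1.77, 1.10, 0.72, 0.06 and -0.52 for the paralogues. Those comparisons share the baseline values, and the difference between the 2 lists was not tested. The lists are not fully separate, since the miR-19b and miR-92a assays also measure genes of the miR-106a-363 cluster. On days 1 and 3 miR-18a was at 3.90 and 4.56, above the highest measured paralogue at 2.22 and 1.67. The paralogue miR-18b was not measured, so miR-18a could not be set beside it.

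The 204 other miRNAs detected in every arm were ranked by how closely their changes followed the median of the members, as the root mean square difference in log2 change over the 5 time points, a measure that the control RNA does not affect. The 5 closest were miR-20b (0.147), miR-106a (0.197), miR-672 (0.244), miR-106b (0.372) and miR-222 (0.423). Of these, miR-20b, miR-106a and miR-106b belong to the paralogous clusters, while miR-222, from a separate X-linked hairpin, has another seed.
miR-222: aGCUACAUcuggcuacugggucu
By Pearson correlation of the 6 arm means on the scale of the median miRNA, in place of that measure, the closest were miR-32 (0.996), miR-106a (0.991), miR-20b (0.990), miR-672 (0.985) and miR-342-3p (0.973), which is also on the myeloid and lymphoid marker list, so 3 were named by both. These are descriptions over 6 arms measured in the same wells. Within the cluster, miR-20a lay closest to the median of the members, at 0.133, followed by miR-17 at 0.213, miR-19b at 0.363 and miR-19a at 0.421, with miR-92a at 1.08 and miR-18a farthest at 2.465. miR-32 has the seed of miR-92a.
miR-32: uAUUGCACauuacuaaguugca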

How the data were processed

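TaqMan Ct values of 222 assays (217 miRNAs and 5 control RNAs) were analysed in 6 arms of 4 values. These make 24 wells in the sense used above, that is, positions matched across assays. The deposited values were raw Ct, treated as a score on a cycle scale, with no normalization by the authors. Per the labels' protocols, total RNA that passed an integrity limit was measured over 40 cycles. The Ct threshold setting and the RNA input per reaction are not stated in the sources used here. All 5 files repeat the same baseline values, which entered the fit a single time. Depth has no counterpart in Ct data, and the number of values per arm limits the precision.

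Minus Ct was scaled within each well and fitted with limma 3.58.1 (lmFit, eBayes) in R 4.3.3, with all 6 arms in a single fit. A miRNA was tested where its Ct was under 35 in at least 3 of 4 values in both arms, and wells at 40 were left out. P-values were two-sided, adjusted by Benjamini-Hochberg over all tested miRNAs, and called under 0.05. A log2 change assumes doubling at each cycle. The fit was tried on simulated data with independent noise and balanced increases and decreases. Those data held no shift of whole wells or of U6, so they do not test the choice of scaling. The median residual SD (log2) was 0.268 with the median-miRNA scaling and 0.644 with U6. A comparison of assays within a well assumes that equal positions in an arm are the same RNA; the means do not depend on this.

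The miRNAs named were all members, the measured paralogues, miR-32, control RNAs where a result turned on them, and the 5 miRNAs closest to the members' median. Members, marker lists and tests were chosen with earlier results of these data known. Alternatives covered other control RNAs, the median Ct, quantile scaling, raw Ct, Ct limits, limma-trend, a 2-fold minimum, the arms in the fit, the reference within the cluster, and single values left out. Muscles of the other collection days were not analysed here.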

Additional observations from a re-analysis of the deposited data

Results flagged for a closer look

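The response of miR-18a differed between time points by a test of the difference itself, limma relative to the median miRNA. It was higher on day 3 than on day 1 by a log2 value of 0.65, and 7 of 9 scalings called this increase, while Y1 gave the opposite direction at -0.76. Its day 21 value differed from its day 7 value by -1.64, which all 9 scalings called. Both differences also passed relative to U6. With single values left out on that scale, the first was called in 5 of 8 runs and the second in 8 of 8.

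The 36 groups of 4 values, 6 members in 6 arms, were taken relative to the median miRNA. None of them had a single value apart from the others by Dixon's criterion, which by chance marks about 1 in 20 groups. This statement does not cover raw Ct.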

How the results depend on the processing

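No paired analysis was possible because the values of an arm carry no mouse name or number that links them to those of another arm. The direction of miR-18a against baseline held under every scaling tried, while each other member turned direction under at least 1 scaling on at least 1 day. miR-19a was positive under all 9 scalings on days 1, 3 and 4 and miR-17 on day 1. Which control is nearest to a stable level was not tested.

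Relative to the median miRNA, members called higher numbered 6, 6, 5, 3 and 1 and lower 0, 0, 0, 1 and 2 on days 1, 3, 4, 7 and 21. With U6 those higher were 1 on each of days 1, 3, 4 and 7, and those lower 1 on day 1 and 0 on day 21. With snoRNA135 they were 3 higher and 1 lower on day 1, 1 and 2 on days 3 and 4, 1 and 4 on day 7, and 0 and 5 on day 21. With snoRNA202, quantile scaling or raw Ct, day 7 had 5 higher and 0 lower. With Y1, day 7 had 5 and 0 and day 21 had 3 and 0. With the median Ct, day 4 had 1 lower, day 7 had 1 higher and day 21 had 4 lower. With a 2-fold minimum, day 7 had 1 higher and day 21 had 0 lower. With miR-17 as the reference, 3 members differed on day 7 in place of 5.

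Between successive time points, U6 and U87 gave 0 lower from day 1 to day 3 and from day 3 to day 4, and 0 (U6) and 3 (U87) lower from day 4 to day 7. U6 gave 0 higher and 1 lower from day 7 to day 21. Y1 gave 0 higher and 6 lower from day 1 to day 3, 0 lower from day 4 to day 7, and 2 lower from day 7 to day 21. snoRNA135 gave 0 higher and 5 lower from day 1 to day 3 and 1 lower from day 3 to day 4. Quantile scaling gave 5 higher and 0 lower in the first step and 3 lower in the second, raw Ct 0 and 1 lower, and limma-trend and no Ct limit 2 lower in the first. A 2-fold minimum gave 0 higher and 0 lower, 0 lower, 1 lower, and 0 higher and 1 lower in the 4 steps. The single increase from day 7 to day 21 also became 0 with a Ct limit of 32, U87, Y1, snoRNA202, quantile scaling or raw Ct.

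Directions turned as follows (log2), counting turns where the value was called in at least 1 of the 2 settings. On day 1, U6 gave -0.19 for miR-20a, -0.30 for miR-19b and -1.0 for miR-92a, and snoRNA135 gave -0.44 for miR-92a. On day 3, U6 gave -0.52 for miR-92a, and snoRNA135 gave -0.15 for miR-17, -0.13 for miR-20a, -0.56 for miR-19b and -1.17 for miR-92a. On day 4, snoRNA135 gave -0.38, -0.24 and -0.87 for miR-17, miR-20a and miR-19b, U6 gave -0.02 for miR-19b, and quantile scaling and raw Ct gave 0.67 and 0.76 for miR-92a. On day 7, snoRNA135 gave -1.01, -0.42, -0.86 and -1.08 for miR-17, miR-19a, miR-20a and miR-19b, the median Ct gave -0.07 for miR-20a, and Y1 and raw Ct gave 0.10 and 0.19 for miR-92a. On day 21, Y1 gave 0.46, 0.82 and 0.45 for miR-17, miR-20a and miR-92a, and snoRNA135 gave -1.04 for miR-19a. From day 1 to day 3, U6 gave 0.14 for miR-17, and Y1 gave -0.76 for miR-18a. Quantile scaling gave 0.18, 0.58, 1.13, 1.46 and 0.59 for miR-17, miR-19a, miR-20a, miR-19b and miR-92a in that step. Outside the rule above, U6 gave 0.59, 0.72, 0.40 and 0.48 for miR-19a, miR-20a, miR-19b and miR-92a in that step. Those were called on neither scale, and other such turns are not listed. From day 3 to day 4, U6 gave 0.04 and 0.10 for miR-18a and miR-20a, and quantile scaling gave 0.07 and 0.18 for miR-17 and miR-20a. From day 4 to day 7, U6 and Y1 gave 0.01 and 0.24 for miR-19b. From day 7 to day 21, snoRNA202, quantile scaling and raw Ct gave -0.29, -0.30 and -0.66 for miR-92a. Except under quantile scaling, these alternatives differ only in the value subtracted from each well, and the cause of the turns was not tested.

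Leaving out single values, members higher lay between 6 and 6, 6 and 6, 5 and 5, 2 and 3, and 1 and 1 on the 5 days, and lower between 0 and 0, 0 and 0, 0 and 0, 1 and 1, and 2 and 3. In the 4 successive steps higher lay between 1 and 1, 0 and 0, 0 and 0, and 0 and 1, and lower between 1 and 3, 2 and 6, 6 and 6, and 4 and 4. Members that differed from the mean of the cluster lay between 4 and 5, 4 and 5, 3 and 4, 4 and 5, and 3 and 4. From day 1 to day 3, miR-19b was gained without day 1 replicate 3 (-0.51) or 4 (-0.58), and miR-92a without day 1 replicate 3 (-0.36) or day 3 replicate 2 (-0.41). From day 3 to day 4, miR-18a was lost without day 3 replicate 1 or 4 or day 4 replicate 1 or 2 (-0.41 to -0.36), miR-19a without day 3 replicate 1, 2 or 4 or day 4 replicate 2 (-0.53 to -0.46), miR-20a without day 3 replicate 3 or 4 or day 4 replicate 1 or 2 (-0.35 to -0.32), and miR-19b without day 4 replicate 2 (-0.50). On day 21, miR-20a was gained as lower without baseline replicate 1 (-0.35). Relative to the mean of the cluster, miR-17 was lost on day 3 without baseline replicate 1 (-0.23) and on day 4 without baseline replicate 1 or day 4 replicate 2, 3 or 4 (-0.30 to -0.19), and gained on day 1 without day 1 replicate 1 (0.27). On that scale miR-20a was lost on day 7 without baseline replicate 3 or 4 or day 7 replicate 4 (-0.22 to -0.18) and gained on day 21 without baseline replicate 1 (-0.24), and miR-19a was gained on day 1 without day 1 replicate 3 or 4 (0.26 and 0.27).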
